A study of Mus musculus with 13 samples.

Results

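Interferon-stimulated genes were followed through the livers of mice with different Rb1 genotypes, with and without diethylnitrosamine (DEN), a liver carcinogen that alkylates DNA. The set was a list of 39 genes, each read from the array's probe sets annotated to that symbol alone, with the probe set of highest mean kept where a gene had several. Of the 19938 genes that could be named in this way, 35 were members. Isg15, Gbp2 and Igtp had only a probe set shared with another gene, and Ifi44 had none in the annotation used. Mx1, Dhx58, Oas1a and Oasl1 fell below the filter on dim genes, the lowest 25% of mean levels, so 31 members entered the tests.

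The arrays covered 13 livers in 5 groups, all from mice aged 14 days. The 2 untreated wild-type mice carried floxed Rb1 without Cre, and per the study's design text they received saline. The 2 wild-type mice given DEN had that same genotype. The 2 heterozygous mice had 1 functional Rb1 allele and 1 floxed allele with Cre, and a second label field calls them LOH. The 5 N750F mice carried a point mutant Rb1, with no second allele or Cre status in their own labels. The 2 knockout-labelled mice had floxed Rb1 with Cre. In this system loxP sites flank exon 19 of Rb1, and the albumin promoter restricts Cre to hepatocytes, so other liver cells keep the gene. DEN was a single injection into the abdomen of 20 mg/kg, and livers were taken after 24 h. Whether litters were shared within a group is not in the labels, and p-values here measure the spread between these arrays.

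Dates of unstated meaning in the array names divide the arrays into a batch of 9 and a batch of 4. The second batch held wild-type DEN array 4, heterozygous array 4 and N750F arrays 4 and 5. No untreated and no knockout-labelled array was in it. Hepatocyte markers averaged 11.64 to 12.05 on the log2 scale in every array. Rb1 itself read 7.92 and 6.57 in the knockout-labelled arrays, 7.27 and 7.15 untreated and 7.62 to 8.43 in the other DEN arrays. A gene-level probe set reads exons outside the deleted one, so this level does not check the labels. Knockout-labelled array 2 stood apart in the mean of the skeletal muscle genes, 8.85 there and at most 6.11 elsewhere. Tnnt3 (11.96), Myh8 (11.61), Tnnc2 (10.49) and Acta1 (8.68) carried that mean. Ckm, Myl1 and Atp2a1 lay within the range of the other arrays, and Myh4 (6.94) was little above it. These are whole-tissue RNA samples, in which fewer cells of a type and less RNA per cell cannot be told apart.

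Interferons are secreted proteins that cells release when they sense foreign or misplaced nucleic acid. Type I interferons act through the IFNAR receptor, the kinases JAK1 and TYK2, and a transcription factor complex that includes STAT2 and IRF9 and binds the interferon-stimulated response element. Interferon gamma acts through the IFNGR receptor on genes that carry the gamma-activated site. Their targets include RNA sensors, enzymes that block viral replication, GTPases that attack vacuoles and the peptide-processing machinery of antigen presentation. In the liver, hepatocytes and macrophages both respond.

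The sequence elements that name these pathways were looked for in the 250 bases before the gene start, in RefSeq promoters of mouse build GRCm38.p6. The table held 34 promoters of 30 members. The response element core, which is GAAA, any 2 bases and GAAA again, occurred on either strand in 12 of the 34 member promoters (35.3%), against 2.98% of 32851 promoters. The gamma-activated site core, TTCNNNGAA, which reads the same on both strands, occurred in 7 (20.6%), against 7.02%. The following stretches show the spacing of the matches in members described below, on the gene's own strand and 5′ to 3′, with the matching bases in capitals. A response element match on the opposite strand reads TTTC, any 2 bases and TTTC.
Ifit1: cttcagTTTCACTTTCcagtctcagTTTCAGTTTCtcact
Ifit3: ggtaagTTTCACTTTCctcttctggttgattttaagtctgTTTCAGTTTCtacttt
Gbp3: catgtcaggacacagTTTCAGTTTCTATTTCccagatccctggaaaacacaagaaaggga
Irgm1: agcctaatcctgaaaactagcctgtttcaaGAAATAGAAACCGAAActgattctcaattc
Irf1: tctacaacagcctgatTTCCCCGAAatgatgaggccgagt
Psmb8: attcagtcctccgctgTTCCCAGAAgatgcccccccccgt

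The Ifit1 stretch lies at chr19:34640779-34640818 and the Ifit3 stretch at chr19:34583367-34583422, both on the plus strand. In each, 2 separate response element matches flank a spacer. The Gbp3 stretch (chr3:142559984-142560043, plus strand) and the Irgm1 stretch (chr11:48871421-48871480, minus strand) each hold 2 matches that overlap by their shared GAAA. Irf1 (chr11:53769908-53769947, plus strand) and Psmb8 (chr17:34198082-34198121, plus strand) each carry 1 gamma-activated site match. Psmb9 and Tap1 are transcribed away from each other on chromosome 17, with 225 bases between their starts, and neither letter pattern occurred in this window of either gene. Cmpk2 and Dtx3l, described below, also held neither pattern in the window.

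Levels below are log2 of the quantile-normalised intensity plus 16, and a level cannot be set against that of another gene's probe set. Averaged over the 31 members, livers without treatment read 7.27 and 7.04 and wild-type livers after DEN 7.23 and 7.45. The heterozygous arrays read 7.46 and 7.32, and the knockout-labelled arrays 7.56 and 7.31. N750F arrays 1 to 5 read 8.15, 7.77, 7.55, 7.37 and 7.46. The N750F mean was 7.66 ± 0.31 (SD, n = 5) and the untreated mean 7.15 ± 0.16 (SD, n = 2). The other DEN groups lay between, at 7.34 ± 0.15 in wild type, 7.39 ± 0.10 in heterozygous and 7.43 ± 0.18 in knockout-labelled livers (SD, n = 2 each). Their order cannot be told apart within these spreads. Every N750F, heterozygous and knockout-labelled array was above both untreated ones. The wild-type array at 7.23 after DEN lay between the untreated arrays. The mean over all 14953 tested genes stayed within 7.39 to 7.52.

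**Figure D1:**
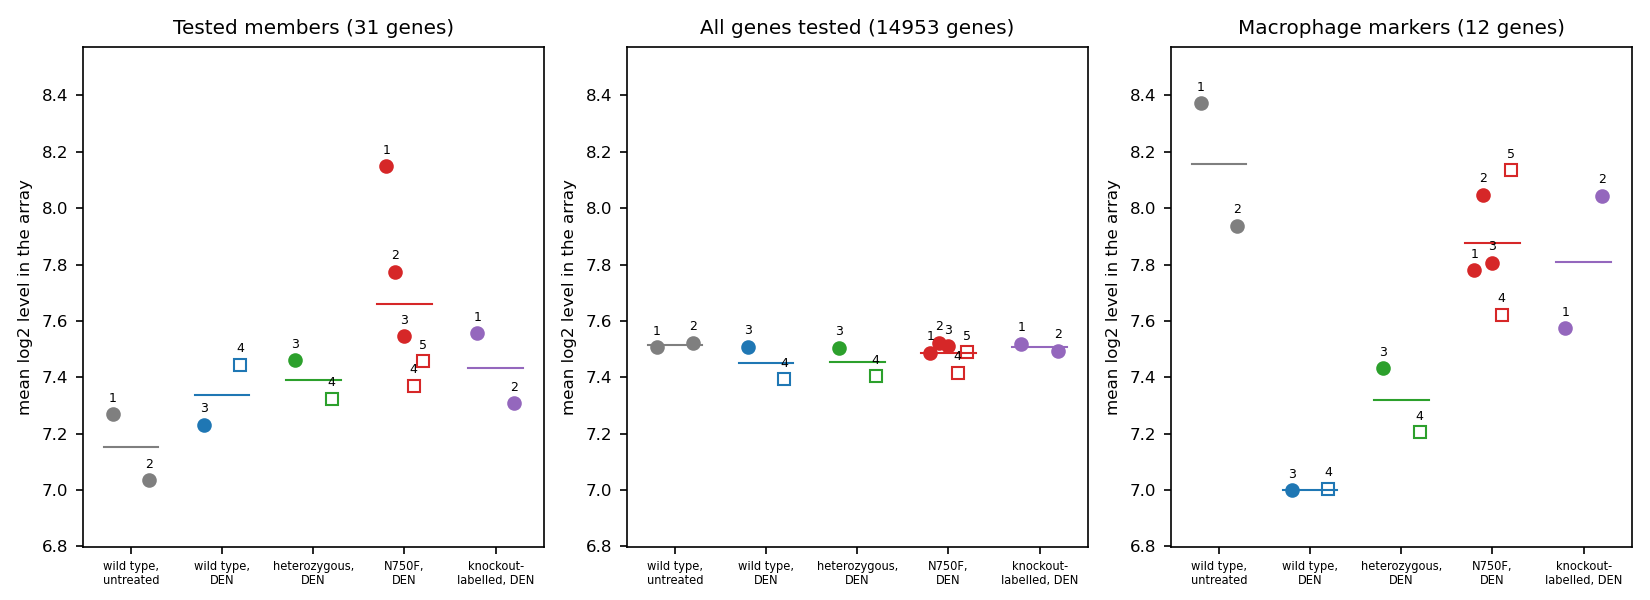
Mean log2 level per array of the 31 tested members, of all 14953 tested genes and of 12 Kupffer cell and macrophage markers. Points are arrays with their replicate number, filled circles are batch 1, open squares are batch 2 and lines are group means. N750F array 1 sits at 8.15 for the members, above every other array, and inside the range of the others for the macrophage markers (7.78).

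N750F livers after DEN had 6 members higher than untreated wild-type liver, and none lower, by limma with Benjamini-Hochberg adjustment over all genes. They were Psmb9, Cmpk2, Dtx3l, Parp14, Parp9 and Mx2, with changes of 1.00 to 1.52 on the log2 scale. The 6 of 31 compare with 3.87% of all genes called higher in that comparison. The median change was 0.67 over the members and -0.06 over all genes, and 25 of the 31 changes were positive. The 25 members not called included 6 with an unadjusted p under 0.05. These arrays differed from the untreated ones in both genotype and treatment, so the comparison does not separate mutation from DEN.

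Psmb9, a catalytic subunit of the immunoproteasome that cuts proteins into peptides for antigen presentation, had the lowest adjusted p. It read 6.04 and 6.06 without treatment, 6.26 and 6.76 in wild type after DEN, and 7.31 and 7.55 in heterozygous livers. The N750F arrays read 7.80, 7.01, 7.03, 7.29 and 6.99, and the knockout-labelled arrays 6.43 and 6.58. All N750F and heterozygous arrays were above every other array. Its N750F change from untreated was 1.13 ± 0.26 (SE), or 2.20-fold, with an adjusted p of 0.0267 by limma. The heterozygous change was as large, 1.34 ± 0.31, but its adjusted p was 0.0535.

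Cmpk2 encodes a mitochondrial nucleotide kinase induced by interferon. It read 4.96 and 5.65 untreated, 5.79 and 6.24 in wild type after DEN, 6.21 and 6.90 in heterozygous, and 7.34 and 6.17 in knockout-labelled livers. N750F arrays 1 to 5 read 7.00, 6.36, 7.46, 6.70 and 6.98. Every DEN array exceeded both untreated arrays. The N750F arrays also lay above the wild-type DEN pair, and overlapped the heterozygous and knockout-labelled arrays. The N750F change was 1.51 ± 0.37, or 2.85-fold, with an adjusted p of 0.0319 by limma.

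Dtx3l, a ubiquitin ligase, and Parp9, an ADP-ribosyltransferase family protein, form a complex. Dtx3l read 7.43 and 7.07 untreated, 7.96 and 7.58 in wild type after DEN, 8.53 and 6.78 in heterozygous, 8.29, 8.37, 8.47, 8.08 and 7.64 in N750F, and 7.89 and 7.02 in knockout-labelled livers. The heterozygous and knockout-labelled pairs each had 1 array below both untreated ones. Parp9 read 7.60 and 7.92 untreated, 8.31 and 8.55 in wild type after DEN, 8.54 and 8.64 in heterozygous, 9.23, 8.76, 8.35, 9.09 and 8.58 in N750F, and 8.74 and 8.18 in knockout-labelled livers. Here all 11 DEN arrays were above both untreated arrays. The N750F changes were 1.22 ± 0.32 for Dtx3l (adjusted p 0.0385 by limma) and 1.00 ± 0.27 for Parp9 (adjusted p 0.0456 by limma).

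Parp14, a mono-ADP-ribosyltransferase, and Mx2, a dynamin-like antiviral GTPase, had N750F arrays of the second batch within the untreated range. Parp14 read 6.86 and 6.54 untreated, 7.63 and 6.63 in wild type after DEN, 7.77 and 6.78 in heterozygous, 8.85, 8.04, 7.75, 7.88 and 6.62 in N750F, and 7.85 and 6.49 in knockout-labelled livers. N750F array 5 lay between the untreated arrays. Mx2 read 7.12 and 6.43 untreated, 7.27 and 5.42 in wild type after DEN, 8.05 and 7.14 in heterozygous, 8.32, 7.45, 7.61, 6.83 and 6.62 in N750F, and 8.24 and 7.92 in knockout-labelled livers. N750F arrays 4 and 5, both of the second batch, were the ones within the untreated range. The fitted changes were 1.52 ± 0.41 for Parp14 (adjusted p 0.0449 by limma) and 1.08 ± 0.30 for Mx2 (adjusted p 0.0491 by limma). Without the batch term they were 1.13 and 0.59, and neither passed, nor did the other 4.

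**Figure D2:**
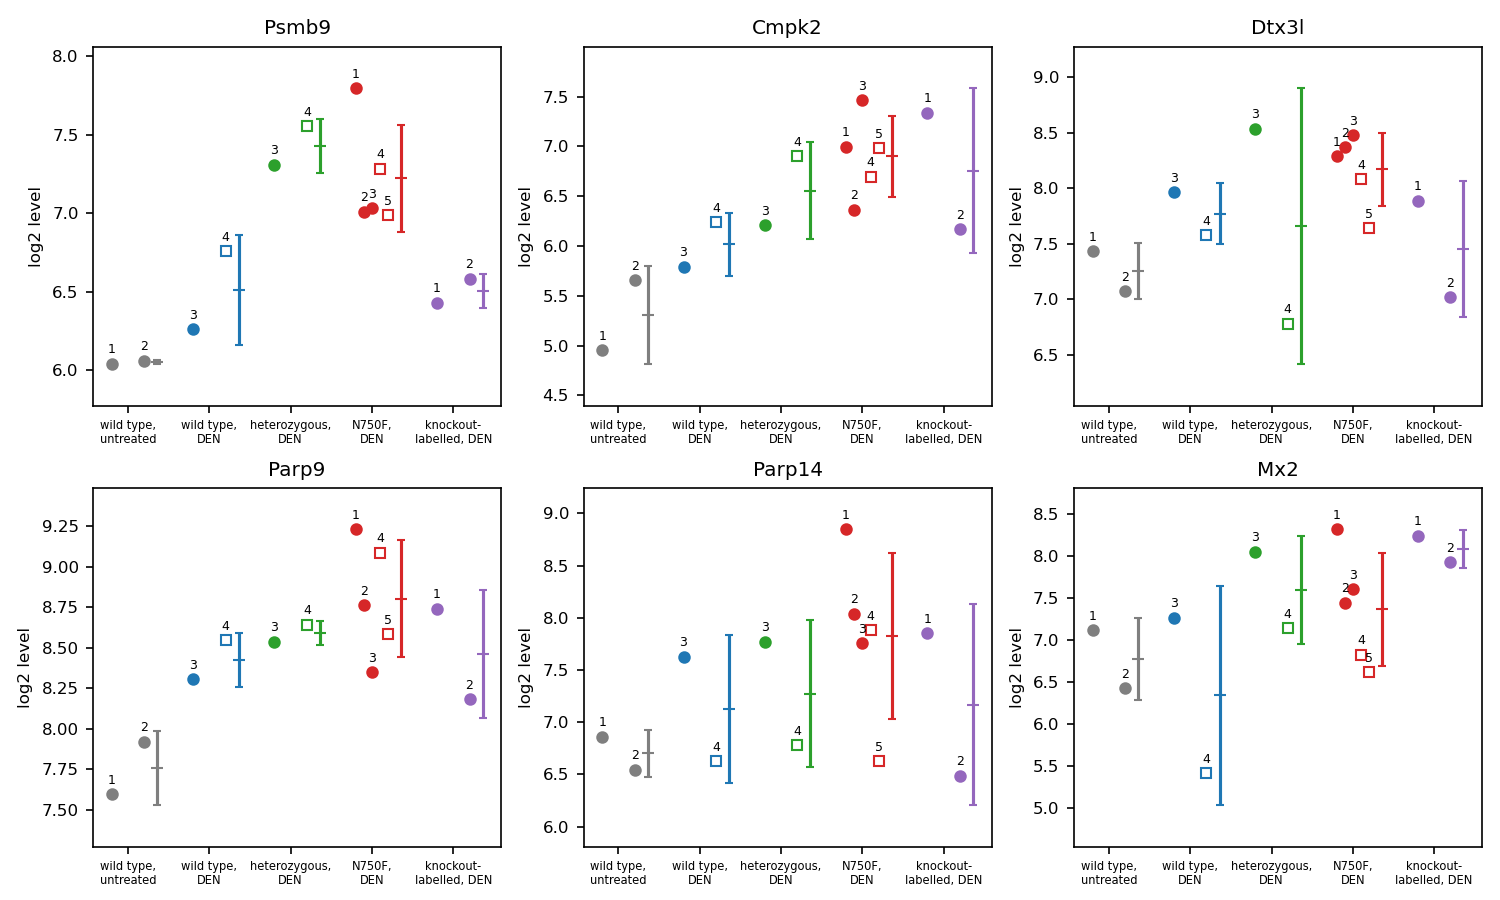
Log2 level of the 6 members called higher in N750F than in untreated liver, by group. Points are arrays with their replicate number (filled circles batch 1, open squares batch 2), and bars to the right of each group are the mean ± SD. Psmb9 is above 6.9 in all N750F and heterozygous arrays and below it elsewhere, while Parp14 and Mx2 overlap between N750F and untreated arrays.

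The count of 6 rested on single arrays. It was 0 when untreated array 1, untreated array 2 or N750F array 3 was left out, 1 (Psmb9) without N750F array 1, 2 without N750F array 2, and 3 without either heterozygous array. Dropping either knockout-labelled array raised it to 8. The share of all genes called in these fits is not given here, so a change particular to the members is not shown. Fitting no batch term gave 0, and the first batch alone gave 1 (Xaf1), where the changes of the 6 genes were 1.02 to 1.64. The median change over all 31 members, 0.67 with all arrays, was 0.39 when N750F array 1 was dropped and 0.33 when untreated array 2 was.

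The other DEN groups had no member called against the same untreated arrays. In wild type after DEN, limma called none of the 31, against 0.689% of all genes, and 3 had an unadjusted p under 0.05. These were Xaf1, an antagonist of an apoptosis inhibitor (1.85 ± 0.66, adjusted p 0.232 by limma), Dtx3l (0.90 ± 0.38, adjusted p 0.313 by limma) and the RNA sensor Ifih1 (0.77 ± 0.35, adjusted p 0.346 by limma). In heterozygous livers none was called by limma, against 1.4% of all genes, with 9 at an unadjusted p under 0.05. Psmb9 and Mx2 came nearest, and Mx2 had a change of 1.43 ± 0.36 with an adjusted p of 0.0672 by limma. In knockout-labelled livers limma called none, against 0.0869% of all genes, with 4 at an unadjusted p under 0.05. The median member changes were 0.21, 0.17 and 0.22 in these groups. Leaving out 1 array at a time moved them over 0.062 to 0.63, 0.084 to 0.62 and 0.14 to 0.55. The 4 comparisons share their 2 untreated arrays, so their likeness is no separate observation.

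**Figure D3:**
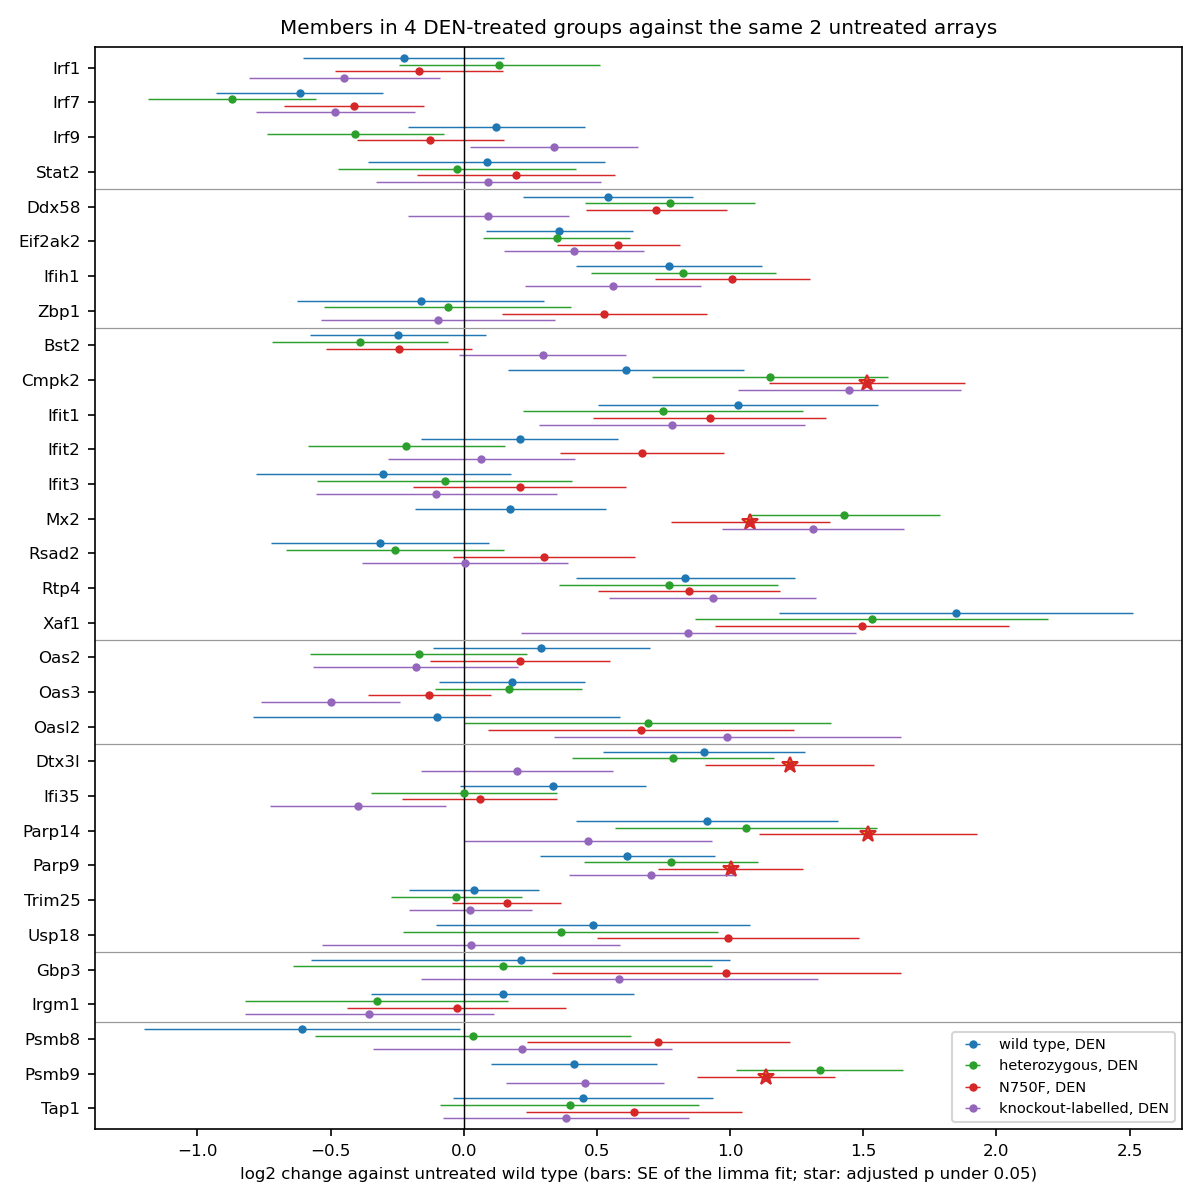
Fitted log2 change of each tested member in the 4 DEN-treated groups against the same 2 untreated arrays, with bars of 1 SE from limma and stars at an adjusted p under 0.05. The 6 stars are all N750F, from 1.00 (Parp9) to 1.52 (Parp14), and the heterozygous points of Psmb9 (1.34) and Mx2 (1.43) lie as far right without a star.

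Between the DEN-treated genotypes no member passed the test in any of the 6 comparisons. For N750F against wild type after DEN, limma called 0 of 31 against 1.42% of all genes, with 4 at an unadjusted p under 0.05 and a median of 0.22. Mx2 had the lowest adjusted p, 0.166, with a change of 0.90 ± 0.29 by limma. Against heterozygous livers limma called 0 against 1.64%, with 1 at an unadjusted p under 0.05 (Ifit2, 0.88 ± 0.29) and a median of 0.23. For N750F against knockout-labelled livers limma called 0 against 0% of all genes, with 4 at an unadjusted p under 0.05 and a median of 0.31. Dtx3l had the lowest adjusted p there, 0.27, at 1.02 ± 0.32 by limma. Without knockout-labelled array 1, 2 members, Usp18 and Ddx58, passed, and the share of all genes called in that fit is not given here.

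For knockout-labelled against wild-type livers after DEN, limma called 0 of 31 members against 0.0468% of all genes, with 2 at an unadjusted p under 0.05. Heterozygous against wild type had 0 against 0.00669%, and knockout-labelled against heterozygous 0 against 0.301%, by limma, with 2 and 3 members at an unadjusted p under 0.05. The medians of these comparisons were 0.0055, -0.05 and -0.01. Psmb9 was 0.92 ± 0.30 higher in heterozygous than in wild-type livers after DEN in the fit, with an adjusted p of 0.687 by limma.

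The tested members were then read by role. Among transcription factors, Stat2 read 7.22 and 7.50 untreated, 7.38 and 6.86 in wild type after DEN, 6.95 and 7.07 in heterozygous, 8.14, 7.63, 7.36, 7.21 and 6.16 in N750F, and 7.95 and 6.95 in knockout-labelled livers. The N750F arrays of Stat2, a subunit of the complex that drives these genes, spanned both sides of every other group. Irf1, an early target of interferon gamma, read 7.03 and 7.92 untreated, 6.97 and 6.88 in wild type after DEN, 7.74 and 6.83 in heterozygous, 6.77, 7.58, 7.73, 6.45 and 6.71 in N750F, and 7.05 and 7.01 in knockout-labelled livers. A second Irf1 probe set, not used here, read 6.81 and 6.51 untreated and 6.63, 7.39, 6.85, 6.66 and 5.84 in N750F. Untreated array 2 was the highest of the 13 on the set used, but the lower of the untreated pair on the second set. Stat2, Irf1, Irf7 and Irf9 had a median N750F change of -0.15 from untreated, with 0 of 4 passing and 1 positive. Irf7, the factor that amplifies interferon production, was at -0.41 ± 0.26 in N750F and at -0.87 ± 0.31 in heterozygous livers (adjusted p 0.394 and 0.192 by limma).

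The 4 nucleic acid sensors all had positive changes in N750F, with a median of 0.65 and none passing. Ifih1, which encodes the RNA sensor MDA5, read 8.75 and 8.68 untreated, 9.15 and 9.29 in wild type after DEN, 9.59 and 8.95 in heterozygous, 10.21, 9.61, 9.65, 9.003 and 9.08 in N750F, and 9.71 and 8.84 in knockout-labelled livers. All 11 DEN arrays were above both untreated arrays. Its N750F change of 1.01 ± 0.29 had an adjusted p of 0.0554 by limma. Ddx58, which encodes RIG-I, read 9.28 and 9.20 untreated, 9.56 and 9.52 in wild type after DEN, 10.09 and 9.46 in heterozygous, 10.08, 9.97, 9.99, 9.32 and 9.50 in N750F, and 9.84 and 8.82 in knockout-labelled livers. The 2 knockout-labelled arrays lay on either side of the untreated pair.

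Of 9 antiviral effectors, 2 were higher in N750F than untreated (Cmpk2 and Mx2), beside 3.87% of all genes, and the median change was 0.85. Rtp4, a chaperone of membrane receptors, read 7.36 and 7.46 untreated, 7.71 and 7.92 in wild type after DEN, 8.27 and 7.22 in heterozygous, 8.56, 8.73, 7.93, 6.90 and 7.44 in N750F, and 8.01 and 8.68 in knockout-labelled livers. N750F array 4 was the lowest of the 13 for Rtp4 and array 2 the highest. The RNA-binding Ifit1, Ifit2 and Ifit3 had fitted N750F differences of 0.92, 0.67 and 0.21 from untreated, and none passed. The 3 testable members of the oligoadenylate synthetase family, which make the activator of RNase L, had a median of 0.21 with none passing. Oasl2 read 7.92 and 6.66 untreated, 7.13 and 6.72 in wild type after DEN, 7.91 and 7.52 in heterozygous, 8.40, 8.39, 7.19, 6.27 and 8.46 in N750F, and 7.53 and 9.03 in knockout-labelled livers. It ranged most within N750F in that family, and its highest array of all was knockout-labelled 2. Oas3 read 7.001 and 7.41 untreated, 7.51 and 7.04 in wild type after DEN, 7.26 and 7.26 in heterozygous, 7.24, 7.06, 6.93, 7.08 and 6.63 in N750F, and 6.87 and 6.55 in knockout-labelled livers. The N750F range of Oas3 overlapped the untreated pair.

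Of the ISG15 system and other regulators, 3 of 6 were called (Dtx3l, Parp14 and Parp9), beside 3.87% of all genes called higher. Their median N750F change was 1.00. Trim25, a ubiquitin ligase acting on RIG-I, read 9.97 and 10.19 untreated, 10.14 and 10.34 in wild type after DEN, 10.07 and 10.29 in heterozygous, 10.14, 10.28, 10.27, 10.42 and 10.59 in N750F, and 10.33 and 9.89 in knockout-labelled livers. All groups of Trim25 overlapped, and its N750F change was not called. The ISG15 protease Usp18 had a median of 6.94 over the N750F arrays, between 6.17 in array 4 and 7.78 in array 2. In the knockout-labelled pair it was 7.44 and 5.19, the widest gap between the 2 arrays of a group for that gene.

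Antigen processing and the interferon-inducible GTPases were the roles in which N750F array 1 stood farthest from the other N750F arrays. Psmb8, a second immunoproteasome subunit, read 8.84 and 7.54 untreated, 8.15 and 6.25 in wild type after DEN, 8.18 and 7.50 in heterozygous, 9.76, 8.47, 8.01, 8.62 and 8.20 in N750F, and 8.80 and 8.02 in knockout-labelled livers. Tap1, one chain of the peptide transporter into the endoplasmic reticulum, read 9.17 and 8.24 untreated, 8.69 and 9.01 in wild type after DEN, 8.91 and 8.69 in heterozygous, 10.27, 8.98, 9.44, 8.15 and 8.69 in N750F, and 9.25 and 8.93 in knockout-labelled livers. Both were highest of 13 arrays in N750F array 1, while the other 4 N750F arrays overlapped the untreated ones. Neither Psmb8 nor Tap1 passed the test in N750F, and Psmb9 did.

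Gbp3, a guanylate-binding protein, read 8.24 and 6.80 untreated, 7.16 and 8.10 in wild type after DEN, 7.36 and 7.77 in heterozygous, and 8.42 and 7.79 in knockout-labelled livers. N750F arrays 1 to 5 read 10.48, 8.22, 7.69, 7.86 and 7.88. Irgm1, an immunity-related GTPase, read 7.87 and 7.72 untreated, 7.43 and 8.61 in wild type after DEN, 7.39 and 7.70 in heterozygous, 8.97, 7.49, 7.42, 7.73 and 7.54 in N750F, and 7.61 and 7.27 in knockout-labelled livers. For both genes array 1 was alone at the top and the other 4 N750F arrays lay within the range of the other groups. Guanylate-binding proteins have close paralogs, and probes of this design may read more than 1 of them.

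**Figure D4:**
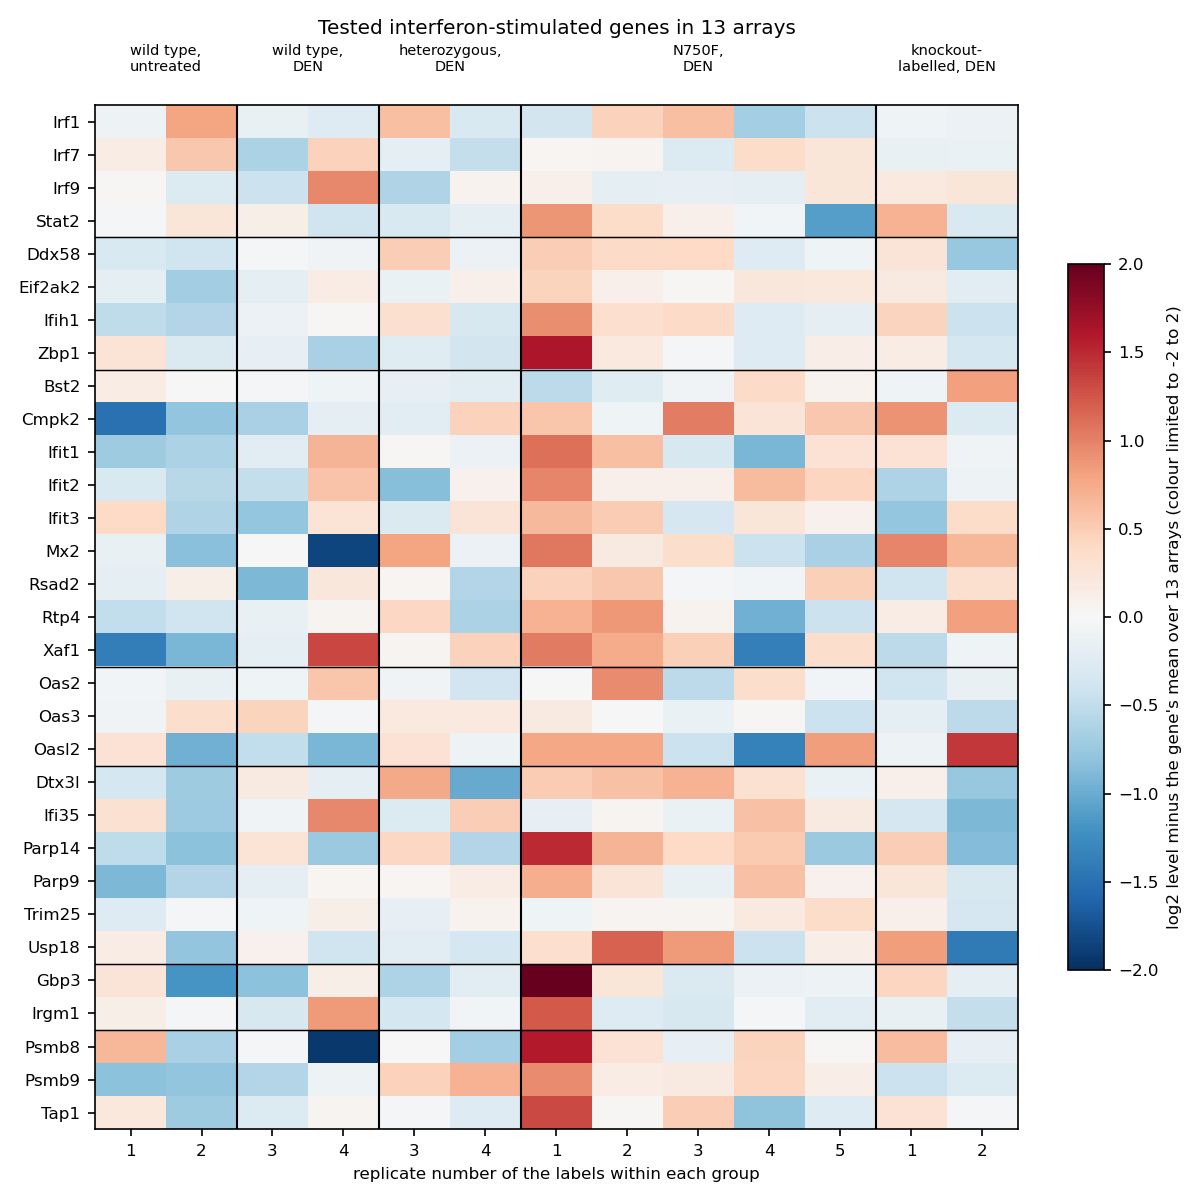
Log2 level of each tested member (rows, grouped by role) minus its mean over the 13 arrays (columns, by group and replicate number), with colour limited to -2 to 2. N750F array 1 is the darkest red column, in 15 of 31 rows the highest of all arrays, and the rows of Gbp3, Irgm1 and Psmb8 are pale in N750F arrays 2 to 5.

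The unevenness between the N750F arrays was a property of many members. Array 1 was the highest of the 5 for 18 of 31 members (58.1%), against 22.0% of all tested genes. Arrays 2 to 5 were highest for 4, 3, 3 and 3. Across all 13 arrays, array 1 was highest for 15 members (48.4%), against 7.09% of all genes. Member by member, array 1 exceeded the mean of the other 4 by a median of 0.53, against 0.03 over all genes. Array 4 was lowest of the 5 for 11 members (35.5%), close to its share of 32.6% over all genes. Knockout-labelled array 2, the array high in some muscle genes, was the lowest of the 13 for 7 members (22.6%), against 7% of all genes. Without that array the median change of the knockout-labelled group from untreated went from 0.22 to 0.55, with still no call.

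The median SD within N750F was 0.49 over the members and 0.31 over all genes, and 24 of the 31 members were above that all-gene median. In the groups of 2 arrays, the members' median SD against that of all genes was 0.25 against 0.17 untreated, 0.35 against 0.32 in wild type after DEN, 0.28 against 0.29 in heterozygous and 0.39 against 0.24 in knockout-labelled livers. There 22, 20, 14 and 22 of the 31 members were above the all-gene median, so a wider spread was not particular to N750F. The difference was also seen within the batch of array 1. Against arrays 2 and 3 alone, array 1 was above both for 20 members (64.5%), against 38.8% of all genes, with a median excess of 0.44.

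By role, array 1 was highest of the N750F arrays for 4 of 4 sensors, 2 of 2 GTPases, 3 of 3 antigen-processing genes, 5 of 9 effectors, 1 of 3 oligoadenylate synthetase genes, 2 of 6 regulators and 1 of 4 transcription factors. The median excess over the other 4 arrays was 2.00 for the GTPases, 1.44 for antigen processing, 0.66 for effectors and 0.63 for sensors. It was 0.31 for the oligoadenylate synthetase family, 0.06 for transcription factors and 0.02 for regulators. The sensor Zbp1 read 8.34 in array 1 and 6.46 to 6.92 in the other 4, and the highest of the other 12 arrays was 7.00. Of the 6 members called against untreated liver, Cmpk2 and Dtx3l were highest in array 3 and the other 4 in array 1.

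**Figure D5:**
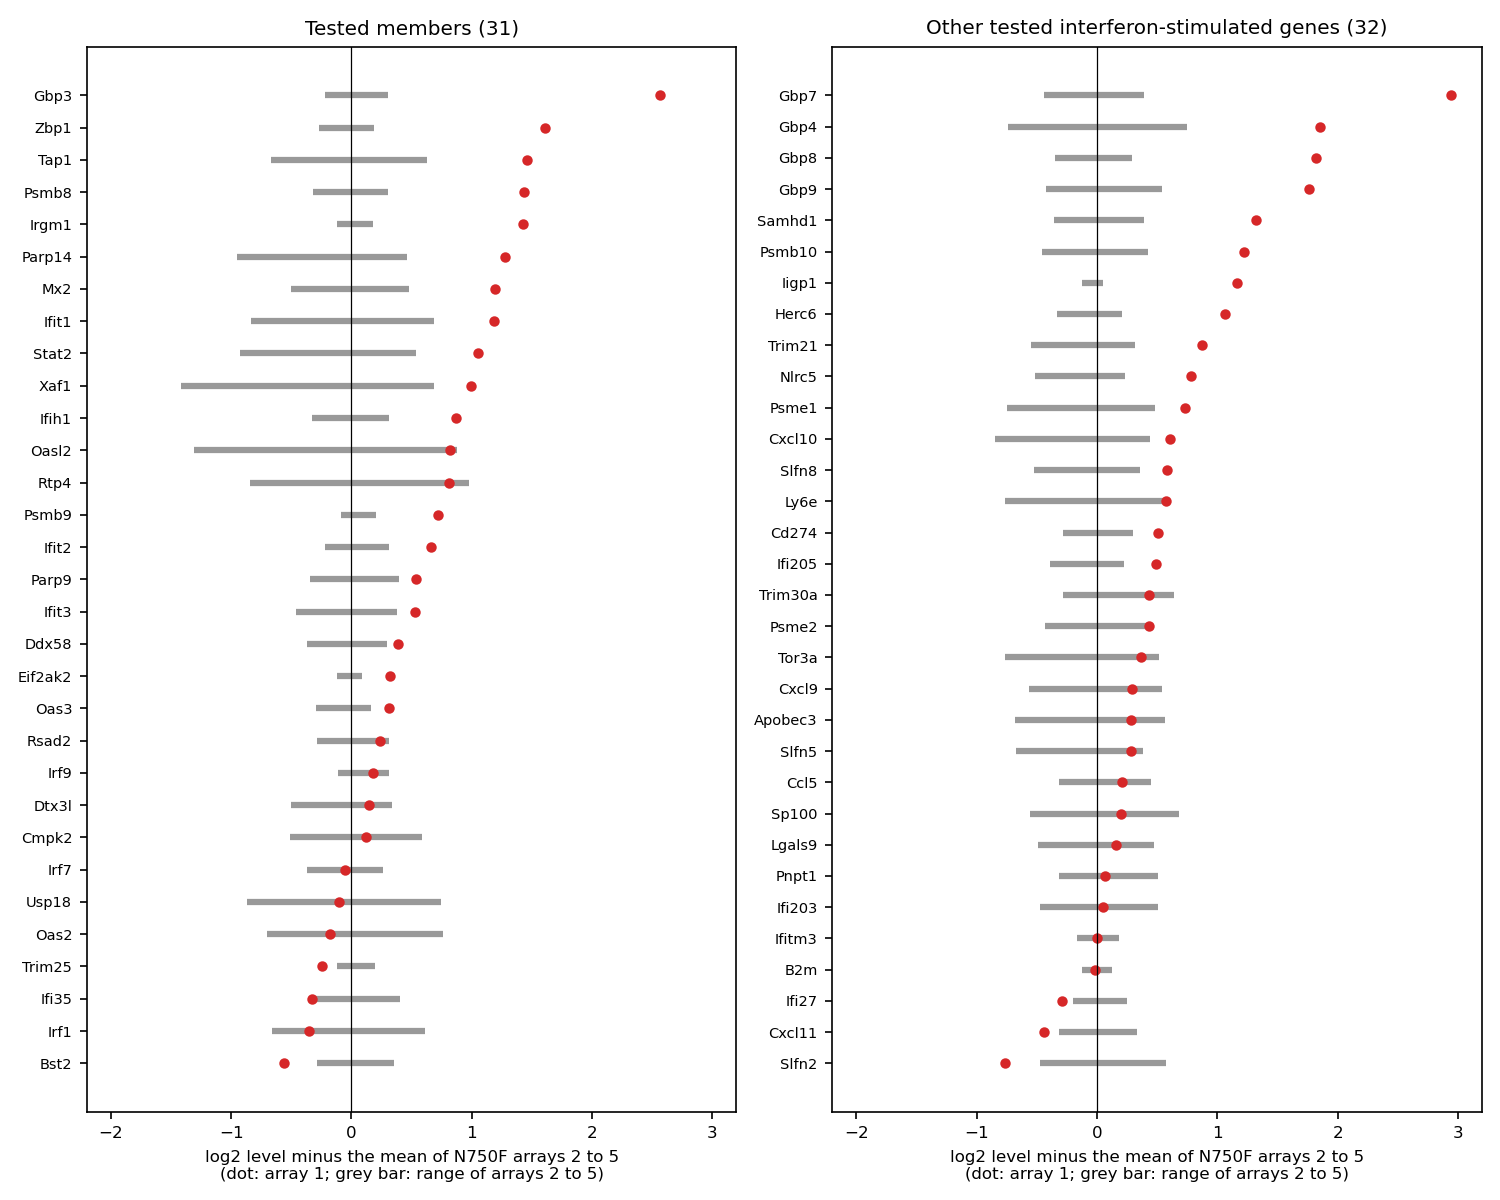
Log2 level in N750F array 1 (dots) relative to the mean of N750F arrays 2 to 5, with grey bars for the range of those 4 arrays, for the 31 tested members and for 32 other tested interferon-stimulated genes. Gbp3 (2.57) and Gbp7 (2.94) are farthest right in the 2 panels, and members such as Cmpk2, Dtx3l and Usp18 have their dot inside the bar.

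A further list of 45 interferon-stimulated genes, 32 of them tested, was read in the same arrays. Array 1 was highest of the N750F arrays for 15 of them (46.9%) and highest of all 13 for 11 (34.4%), with a median excess of 0.46. The 4 with the largest excess were guanylate-binding protein genes, chosen for mention after their values were seen. Gbp7 read 11.10 in array 1 against 7.72 to 8.55 in the other 4, and Gbp4 9.61 against 7.02 to 8.51. Gbp8 read 9.21 against 7.04 to 7.68, and Gbp9 8.95 against 6.77 to 7.73. In the N750F comparison with untreated liver, 3 of the 32 rose by limma, against the 3.87% of all genes called higher, with a list median of 0.15. Sp100, a nuclear body protein, rose by 1.49 ± 0.24 (adjusted p 0.0084 by limma). Trim30a, a tripartite motif protein, rose by 1.23 ± 0.29, and the exoribonuclease Pnpt1 by 0.82 ± 0.23 (adjusted p 0.0275 and 0.0499 by limma).

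Upstream of the members, 1 of 7 tested receptor and kinase genes, of 10 listed, rose in N750F against untreated liver, beside the same 3.87%. This was Ifngr1, the ligand-binding chain of the interferon gamma receptor. It read 7.93 and 8.59 untreated, 9.73 and 8.90 in wild type after DEN, 9.47 and 9.36 in heterozygous, 9.39, 9.18, 9.57, 8.91 and 9.40 in N750F, and 9.08 and 8.76 in knockout-labelled livers. The change was 1.16 ± 0.26 (adjusted p 0.0252 by limma), and all 11 DEN arrays were above both untreated ones. The type I receptor chains Ifnar1 and Ifnar2 had differences of 0.48 ± 0.24 and 0.21 ± 0.24 (adjusted p 0.265 and 0.683 by limma). Of 10 tested genes of interferon induction, 1 fell, against 2.34% of all genes called lower. It was the adaptor Ticam1 (-1.07 ± 0.28, adjusted p 0.0403 by limma). None of 6 tested interferon genes and none of 6 negative regulators passed in limma. The mean over the 16 interferon genes measured was 6.17 in N750F array 1 and 5.84 to 6.14 in the other 12 arrays. Only 6 of the 16 passed the filter on dim genes, and Ifnb1 and Ifng did not. In array 1 Ifnb1 read 5.65, within the other N750F arrays (5.60 to 6.58), and Ifng 5.81, above them (4.89 to 5.69).

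Markers of cells that respond to interferon were read beside these results. The 12 Kupffer cell and macrophage markers averaged 8.37 and 7.94 untreated, 7.00 and 7.00 in wild type after DEN, 7.43 and 7.20 in heterozygous, 7.78, 8.05, 7.81, 7.62 and 8.13 in N750F, and 7.57 and 8.04 in knockout-labelled livers. Against untreated liver 3 of the 12 were lower in wild type after DEN by limma, against 0.388% of all genes, with a median of -1.21. In N750F 1 was higher and 1 lower, against 3.87% and 2.34% of all genes, with a median of -0.17. N750F exceeded wild type after DEN by a median of 0.97 in these markers, with 2 of 12 called higher against 1.13% of all genes. N750F array 1, highest for the interferon-stimulated genes, was the second lowest of the N750F arrays for them. The 10 T and NK cell markers measured averaged 5.51 to 5.78 in all arrays, and 5.68 in N750F array 1, but 8 of them were below the filter on dim genes. The 2 tested, Cd3e and Prf1, exceeded N750F arrays 2 and 3 in array 1 by a median of 0.48. Cd3e read 7.60 there and 6.88 to 7.35 in the other 4 N750F arrays, and reached 8.03 in heterozygous array 4. The 6 plasmacytoid dendritic cell markers measured averaged 6.54 in N750F array 1 and 6.14 to 6.48 in the other 4, and 6.59 in knockout-labelled array 2. Of the 4 that were tested, Siglech (6.68) and Tcf4 (7.48) were highest of all 13 arrays in N750F array 1. Bcl11a and Cox6a2 were not, and each was lower there than in N750F arrays 2 and 3. Spib and Ccr9 were below the filter on dim genes. Spib was highest of all 13 in N750F array 1 and Ccr9 was not. The part of cell composition in the interferon-stimulated gene differences was not tested.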

How the data were processed

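Total RNA of frozen liver pieces was amplified, labelled with biotin and hybridised to Affymetrix gene arrays, per the labels. The authors deposited 1 linear intensity per probe set and array, made with RMA in Affymetrix Expression Console 1.1 per the submitters' processing notes. The genome build is not given in the sources used here. The test design had assumed log2 values. The deposited intensity values of 35556 probe sets (array medians 48.2 to 82.99) were therefore quantile-normalised, 16 was added and log2 taken, which shrinks changes of dim genes. Of 23410 annotated probe sets, 21789 carried 1 gene symbol and 1621 several, and these several-gene probe sets were left out. Genes below the 25th percentile of mean level were left out, leaving 14953. One limma 3.58.1 model (R 4.3.3) with group and batch (7 residual degrees of freedom) gave 10 comparisons, each adjusted by Benjamini-Hochberg and called at 0.05. The model was tested on simulated data. Alternatives covered normalisation, offset, filter, probe set, batch, block, a Y-linked covariate and each array left out. The covariate was the mean level in each array of the measured genes among Ddx3y, Eif2s3y, Kdm5d and Uty. It stands in for sex, which is not among the sample traits used here, and its levels by group are not given. Per-array values are given for members called in any comparison and the 2 highest-mean tested members of each role. Of other pathway genes, those called and the receptors are named. Members and lists were chosen with earlier results of these data known. The number of arrays limits precision.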

Additional observations from a re-analysis of the deposited data

Results flagged for a closer look

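The following values stood far from the other 4 N750F arrays by Dixon's gap criterion, which chance meets in about 1 group in 20. It was met by 4 of 31 members, 3 of them in array 1, by 8 of 61 other pathway genes, 2 of them in array 1, and by 2 of 7 role means. The share of all tested genes that meet it was not computed, so a rate particular to the members is not shown. In N750F array 1 the mean of the interferon-inducible GTPases was 9.73 and that of antigen processing 9.28. The members Gbp3 (10.48), Irgm1 (8.97) and Zbp1 (8.34) and the related GTPase genes Gbp7 (11.10) and Iigp1 (12.24) were high in the same array. In N750F array 4, Xaf1 (5.78), Ifnar2 (10.00), Ikbke (5.97), Tlr9 (4.25) and Adar (5.64) stood apart. In N750F array 5, Ifne (5.48) and Jak2 (8.68) did.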

How the results depend on the processing

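Of 23 alternative settings, 14 moved the count of members called in N750F against untreated liver (6) by more than 1.5 times. It was 1 without quantile normalisation, 2 with an offset of 1, 3 with no filter on dim genes, 0 with no batch term, 2 with only the 2 groups fitted, and 1 in batch 1 alone, and it ran from 0 to 8 with 1 array left out. The cause was not tested, and the shares of all genes called in these settings are not given here. An offset of 50 gave 1 call (Mx2) for heterozygous against untreated, which ran from 0 to 1 with 1 array left out. The Y-linked covariate gave 1 (Gbp3) for N750F against heterozygous, and N750F against knockout-labelled ran from 0 to 2 with 1 array left out. With replicate number as a block the N750F count was 0. Deviations of same-numbered arrays correlated at -0.13 to 0.45, and not every pair was over 0.1. All these pairs shared a batch. Numbers 3 and 4 gave 0.27 to 0.45, and numbers 1 and 2 gave -0.13 to 0.13. The groups of numbers 3 and 4 span both batches, so a batch difference enters their deviations. Deviations in a group of 2 arrays mirror each other, so wild type with heterozygous gave the same 0.45 for both numbers. No label ties the numbers to animals or litters, so pairing was not established. The block moved the member medians against untreated liver to 0.92 (N750F), 0.58 (heterozygous) and 0.65 (wild type after DEN), and to -0.54 for knockout-labelled minus heterozygous, -0.52 for knockout-labelled minus wild type and 0.56 for N750F minus knockout-labelled. With the Y-linked covariate, medians were 0.49 (wild type after DEN minus untreated), -0.39 (heterozygous minus wild type), -0.41 (knockout-labelled minus wild type), 0.56 (N750F minus heterozygous) and 0.66 (N750F minus knockout-labelled). In batch 1 alone they were 0.22 (heterozygous minus wild type) and 0.59 (N750F minus wild type). With 1 array left out, medians ran from -0.22 to 0.21 (heterozygous minus wild type), -0.49 to 0.15 (knockout-labelled minus wild type), 0.0017 to 0.60 (N750F minus wild type), 0.33 to 0.81 (N750F minus untreated), 0.084 to 0.62 (heterozygous minus untreated), 0.14 to 0.55 (knockout-labelled minus untreated) and 0.062 to 0.63 (wild type after DEN minus untreated). The members' mean in N750F array 1 minus that of the other 4 was 0.61, and 0.52 to 0.67 in 5 other settings. Groups of 2 arrays limit what these fits could resolve.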
